A study of Mus musculus with 9 samples.

Results

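The 10 genes described here encode the core enzymes that break down the branched-chain amino acids leucine, isoleucine and valine and that carry the propionyl-CoA formed from isoleucine and valine into the citric acid cycle, with the kinase and phosphatase of the central complex. They were picked by symbol and are 10 of the 41761 genes in the expression table. RNA was sequenced from cultured mouse inguinal adipose stromal cells that had been differentiated towards white adipocytes while exposed to sodium alginate, the sodium salt of a brown algal polysaccharide. There were 3 libraries at each of 0, 50 and 100 µM alginate, 9 in all. The cells were primary cells from wild-type C57BL/6J mice, whose age is not given in the sources used here. Every group, the 0 µM controls included, was grown with 10% fetal bovine serum and induced with insulin (1 µg/ml), dexamethasone (1 µM) and IBMX (0.5 mM). The treatment protocol also lists rosiglitazone, a PPARγ agonist, at 1 µM in every group and after the medium change on day 2, while the series' design text omits it. Library titles name day 6, but collection is placed on day 7 in the protocol. The treatment label and library name, which were followed for dose, give 100 µM for 3 libraries that are titled 50 µM. No label says whether the libraries of a dose were separate cultures or animals, so each p-value reflects the spread between libraries, which could be technical.

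Mitochondrial branched-chain aminotransferase (Bcat2) takes the amino group off the amino acids. The branched-chain keto acid dehydrogenase complex then commits the keto acids to oxidation, in a step that cannot be reversed in the cell. Its E1 component is built from the alpha and beta subunits encoded by Bckdha and Bckdhb, and Dbt encodes its E2 core. A kinase (Bckdk) switches the complex off by phosphorylating the alpha subunit, and a mitochondrial phosphatase (Ppm1k) switches it on again. Isovaleryl-CoA dehydrogenase (Ivd) acts next on the leucine branch. Propionyl-CoA carboxylase, a biotin enzyme of an alpha subunit (Pcca) and a beta subunit (Pccb), and the cobalamin-dependent methylmalonyl-CoA mutase (Mut) lead propionyl-CoA to succinyl-CoA. Adipocytes are known to raise this pathway as they differentiate and to use its carbon for fatty acids.

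All 10 genes had their highest mean level at 100 µM alginate, and 9 of them, every one but Ppm1k, passed the test against 0 µM. The change ran from 83.2% higher mean FPKM for Bcat2 to 17.9% for Ivd. At 50 µM Bcat2 alone passed, with 35.0% of its rise to 100 µM already reached. For the other 9 the 50 µM mean had covered between 2.57% and 22.0% of the difference between the 0 and 100 µM means. FPKM (fragments per kilobase of a gene, scaled to the depth of its library) allows levels of different genes to be set beside each other, and all levels below are in that unit.

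The libraries held 14019672 to 17094467 reads, rebuilt from the FPKM values. Among the 10 genes, reads per library ran from 278 to 421 for Ppm1k, the least covered, and from 3767 to 8006 for Bcat2, the most covered. No library repeated another of its dose, since their reads gave a chi-square of 3.35 to 7.70 per gene with at least 40 reads in a pair. Along the first principal component, with 35.9% of the variance, the 100 µM libraries (18.2 to 21.4) lay far from those at 50 µM (-9.63 to -4.30) and 0 µM (-15.0 to -10.9). Library 3 of 50 µM stood apart on the second component, at -19.1 against -4.62 to 11.4 for the rest. The labels name adipose-derived stem cells under white differentiation. As a sum, markers of mature adipocytes were abundant in every library, with 8266 to 8502 FPKM over 15 genes at 0 µM, among them the lipid carrier Fabp4. Pck1, also on that list, averaged only 0.614, 0.457 and 1.11 FPKM at 0, 50 and 100 µM. Progenitor, macrophage and endothelial markers were found as well, at lower sums given further on, but some of each list were near 0. At 0 µM the macrophage list's Itgam, Ptprc and Cd163 averaged 0, 0.400 and 0.669 FPKM. The endothelial Vwf averaged 0.175 FPKM, and the progenitor Dpp4 and Dlk1 0.333 and 0.423 FPKM. These genes were too low to be tested.

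Promoter letters are shown as a description only, and any link to expression was not tested. They are the 250 bases before a gene's annotated start, from RefSeq on GRCm38.p6, which held 11 such windows for 8 of the 10 genes. Dbt and Mut were not matched. The letters searched, on both strands, were AGGTCA (the core of nuclear receptor elements), TCAAGGTCA (an element of oestrogen-related receptors, which contains the former), CCAAT (the CCAAT box), GGGCGG (the GC box), CACGTG (the E-box of carbohydrate response factors and others) and GCATGCGC (the core of the NRF1 element). Capitals mark every match, in the order of the roles above. The windows are chr7:45569903-45570152 on the plus strand (Bcat2, the more upstream of its 2 windows), chr9:83924887-83925136 on the plus strand (Bckdhb, likewise), chr6:57535488-57535737 on the minus strand (Ppm1k), chr2:118861744-118861993 on the plus strand (Ivd) and chr9:101034885-101035134 on the minus strand (Pccb), each printed 5′ to 3′ along the gene.
Bcat2: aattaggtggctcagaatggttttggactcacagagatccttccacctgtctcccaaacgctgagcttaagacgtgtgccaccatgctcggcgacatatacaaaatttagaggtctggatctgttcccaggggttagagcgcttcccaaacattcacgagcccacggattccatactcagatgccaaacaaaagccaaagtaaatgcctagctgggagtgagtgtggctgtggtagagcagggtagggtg
Bckdhb: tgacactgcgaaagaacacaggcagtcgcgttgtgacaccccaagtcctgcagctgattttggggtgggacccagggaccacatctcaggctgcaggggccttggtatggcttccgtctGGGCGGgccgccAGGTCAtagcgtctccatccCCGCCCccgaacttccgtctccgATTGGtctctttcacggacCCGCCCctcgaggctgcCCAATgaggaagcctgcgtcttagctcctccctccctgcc
Ppm1k: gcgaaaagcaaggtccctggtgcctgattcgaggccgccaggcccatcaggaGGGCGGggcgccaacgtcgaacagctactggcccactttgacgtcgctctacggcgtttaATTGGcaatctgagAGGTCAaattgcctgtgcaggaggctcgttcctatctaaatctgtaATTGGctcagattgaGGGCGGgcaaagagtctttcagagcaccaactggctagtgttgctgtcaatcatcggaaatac
Ivd: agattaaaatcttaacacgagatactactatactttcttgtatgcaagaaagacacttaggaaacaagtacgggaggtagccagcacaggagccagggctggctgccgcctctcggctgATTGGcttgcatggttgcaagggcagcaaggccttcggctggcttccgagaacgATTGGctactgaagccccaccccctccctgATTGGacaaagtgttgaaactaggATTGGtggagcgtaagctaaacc
Pccb: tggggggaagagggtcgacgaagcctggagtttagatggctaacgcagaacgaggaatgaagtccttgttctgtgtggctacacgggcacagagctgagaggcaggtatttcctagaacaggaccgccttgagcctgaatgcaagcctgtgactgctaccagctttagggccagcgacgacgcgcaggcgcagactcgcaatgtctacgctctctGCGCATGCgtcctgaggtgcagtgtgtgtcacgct
The windows were unlike each other in these letters. Both Bcat2 windows, the Bckdha window and the Bckdhb window not printed held none of the 6 motifs. The Bckdhb window printed above held 3 GC boxes, 2 CCAAT boxes and 1 AGGTCA. The Ppm1k window held 2 GC boxes, 2 CCAAT boxes and 1 AGGTCA. The Ivd window held 4 CCAAT boxes, and the Pccb window held the single GCATGCGC found among the 11.

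Set against all 32851 windows of the same length, CCAAT was found in 6 of the 11 windows (Bckdhb, Bckdk, Ivd, Ppm1k and both of Pcca) and in 33.8% of all windows. GGGCGG was in 3 of 11 (Bckdhb, Pcca and Ppm1k) and in 32.7% of all. AGGTCA was in 3 of 11, in the same genes, and in 14.0% of all. GCATGCGC was in 1 of 11 and 2.26% of all. TCAAGGTCA and CACGTG were in 0 of 11, against 0.387% and 6.02% of all. These are matches of letters within 250 bases, not binding sites.

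In the table's own coordinates, on the C57BL/6NJ strain assembly, the genes lie on 7 chromosomes. Bcat2 (MGP_C57BL6NJ_G0032714) lies on chromosome 7 at 48123207 to 48142576, Bckdha (MGP_C57BL6NJ_G0032320) on chromosome 7 at 24938341 to 24978611 and Bckdk (MGP_C57BL6NJ_G0033556) on chromosome 7 at 137437646 to 137446531. Bckdhb (MGP_C57BL6NJ_G0035582) lies on chromosome 9 at 86938252 to 87150046 and Pccb (MGP_C57BL6NJ_G0035674) on chromosome 9 at 105376844 to 105441688. Dbt (MGP_C57BL6NJ_G0028227) lies on chromosome 3 at 122756783 to 122801258 and Ppm1k (MGP_C57BL6NJ_G0031238) on chromosome 6 at 58321875 to 58350979. Ivd (MGP_C57BL6NJ_G0026746) lies on chromosome 2 at 125577944 to 125599768, Pcca (MGP_C57BL6NJ_G0022080) on chromosome 14 at 125066588 to 125456764 and Mut (MGP_C57BL6NJ_G0024169) on chromosome 17 at 43614211 to 43640852. Each is listed as protein-coding, with 1 value per gene and library.

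The aminotransferase came first in level and in change. Bcat2 had 84.8, 81.9 and 84.6 FPKM in the 3 libraries at 0 µM, 109, 112 and 104 FPKM at 50 µM, and 156, 155 and 149 FPKM at 100 µM. The 3 doses were fully separated, with each 50 µM library above all controls and each 100 µM library above all 50 µM libraries. The mean rose from 83.8 ± 1.57 to 108 ± 4.29 and 153 ± 3.76 FPKM (SD, n = 3). On the scale of log2(FPKM + 1), Bcat2 at 100 µM was 0.87 ± 0.0417 (SE) above 0 µM, with limma adjusted p = 1.47e-05. At 50 µM it was 0.36 ± 0.0417 above 0 µM, with limma adjusted p = 0.0253. The 50 µM call was lost in 7 of 20 alternative analyses, with adjusted p from 0.000413 to 0.0998 over all of them, among them those without 0 µM library 1, 2 or 3 (0.0998, 0.0969 and 0.0819) and without 50 µM library 2 (0.0981). Between 50 and 100 µM Bcat2 rose by 0.50 (limma adjusted p = 0.000212).

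The subunits of the dehydrogenase complex differed in level and rose together at 100 µM. Dbt, the E2 core, had 58.7, 54.3 and 59.3 FPKM at 0 µM, 67.4, 63.8 and 59.4 at 50 µM, and 80.3, 88.0 and 87.6 at 100 µM. The lowest 50 µM library of Dbt lay just above the highest control, and all 100 µM libraries were well above both. Dbt was 0.56 ± 0.0603 higher at 100 µM on the log2 scale (limma adjusted p = 0.000145). Bckdhb, the E1 beta subunit, had 44.6, 39.6 and 41.4 FPKM at 0 µM, 45.6, 43.3 and 47.5 at 50 µM, and 63.2, 68.7 and 66.0 at 100 µM. Its 0 and 50 µM libraries overlapped, and the 100 µM libraries stood clear of both. The log2 difference of Bckdhb between 100 and 0 µM was 0.64 ± 0.0562 (limma adjusted p = 4.96e-05).

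Bckdha, the E1 alpha subunit that carries the regulatory phosphorylation, had 12.6, 12.1 and 12.2 FPKM at 0 µM, 13.2, 14.3 and 13.5 at 50 µM, and 23.6, 17.4 and 17.4 at 100 µM. Library 1 of 100 µM lay above the other libraries of its dose, and all 3 exceeded every library of the lower doses. Means of Bckdha at 0 and 100 µM were 12.3 ± 0.301 and 19.5 ± 3.61 FPKM (SD, n = 3), for a log2 difference of 0.61 ± 0.102 (limma adjusted p = 0.00172). Without 100 µM library 1 that difference was 0.47, with adjusted p = 0.000326 and a range of 0.000206 to 0.00787 over all alternatives. A gene on the opposite strand, B3gnt8, overlaps Bckdha and held 9.57% as many reads. At 0 and 100 µM B3gnt8 averaged 0.546 ± 0.0350 and 0.379 ± 0.0921 FPKM.

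The kinase and the phosphatase that act on the complex were the least changed of its genes in the table. Bckdk, the kinase, had 11.1, 11.1 and 11.3 FPKM at 0 µM, 10.8, 10.4 and 13.6 at 50 µM, and 13.3, 13.6 and 13.4 at 100 µM. At 50 µM, libraries 1 and 2 lay below every control, whereas library 3, the one that stood apart on the second component, lay among the 100 µM libraries. Bckdk was 0.25 ± 0.0813 higher at 100 than at 0 µM (limma adjusted p = 0.0408), and that call held in 7 of 20 alternatives, with adjusted p from 0.00174 to 0.113. Those without any 1 of the 0 or 100 µM libraries ended it, at adjusted p from 0.0793 to 0.101. So did rescaling to a common sum, removal of the authors' factor per library, and limma voom on rebuilt reads. Between 50 and 100 µM it did not pass (difference 0.21, limma adjusted p = 0.0957), but without 50 µM library 3 the difference was 0.32 with adjusted p = 0.00256, the only passing value in a range of 0.00256 to 0.268.

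Ppm1k, the phosphatase, was the lowest of the 10 at every dose. It had 3.32, 3.827 and 3.74 FPKM at 0 µM, 3.79, 3.53 and 3.63 at 50 µM, and 4.37, 4.68 and 3.829 at 100 µM. All 100 µM libraries were above all controls, though the nearest pair was separated by less than 0.01 FPKM. The log2 difference between 100 and 0 µM was 0.19, with a 95% interval of 0.02 to 0.36 and limma adjusted p = 0.0803. Without 100 µM library 3 it was 0.26 with adjusted p = 0.0332, and over all alternatives adjusted p ranged from 0.0332 to 0.241.

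Ivd, the dehydrogenase of the leucine branch, had 16.4, 18.0 and 17.2 FPKM at 0 µM, 17.5, 18.4 and 16.0 at 50 µM, and 19.0, 20.7 and 21.2 at 100 µM. The 0 and 50 µM libraries covered the same range, and the 100 µM libraries lay above it. Ivd was 0.22 ± 0.0629 higher at 100 than at 0 µM (limma adjusted p = 0.0220). That call held in 14 of 20 alternatives, over which adjusted p ranged from 0.0142 to 0.144. It was lost without 0 µM library 1 or 3 (0.0744 and 0.0581) and without 100 µM library 2 or 3 (0.0687 and 0.0733). Rescaling to a common sum ended it too (0.144), as did removal of the authors' factor per library (0.0833).

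The 3 genes of propionate breakdown rose at 100 µM and showed little movement at 50 µM. Pccb, the beta subunit of the carboxylase, had 25.3, 24.6 and 25.5 FPKM at 0 µM, 28.8, 27.1 and 23.8 at 50 µM, and 33.9, 36.1 and 40.3 at 100 µM. Library 3 of 50 µM was below the controls while libraries 1 and 2 were above them, and no 100 µM library overlapped the rest. Pccb was 0.53 ± 0.0780 higher at 100 than at 0 µM (limma adjusted p = 0.000852). Pcca, the alpha subunit that carries biotin, had 13.0, 13.1 and 12.8 FPKM at 0 µM, 13.2, 13.0 and 13.7 at 50 µM, and 16.4, 17.2 and 18.0 at 100 µM. The controls of Pcca were tightly grouped, 50 µM overlapped them, and 100 µM stood apart. Its log2 difference between 100 and 0 µM was 0.38 ± 0.0453 (limma adjusted p = 0.000261).

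Mut, the mutase, had 31.8, 31.0 and 32.4 FPKM at 0 µM, 34.6, 34.0 and 32.3 at 50 µM, and 45.8, 42.5 and 45.0 at 100 µM. Only the 100 µM libraries were separate from the rest. Mut was 0.47 ± 0.0446 higher at 100 than at 0 µM on the log2 scale (limma adjusted p = 7.66e-05). Genes on the opposite strand overlap Pcca (Ggact, with 10.6% as many reads) and Mut (Cenpq, with 6.45%), and the sources used here do not state whether counting used strand. At 0 and 100 µM, Ggact averaged 3.69 ± 0.154 and 4.33 ± 0.184 FPKM, and Cenpq 3.52 ± 0.408 and 2.51 ± 0.266 FPKM.

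**Figure D1:**
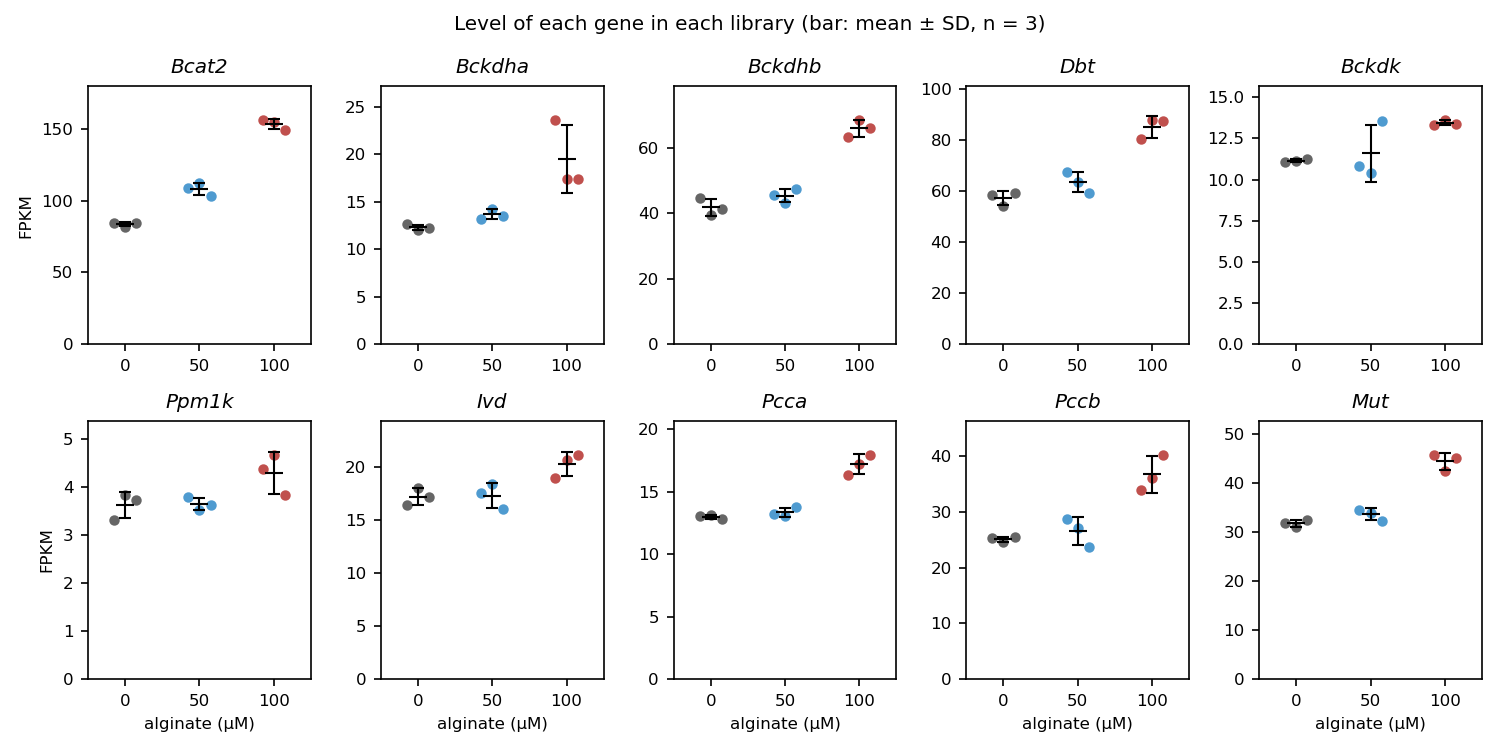
FPKM of each of the 10 genes (y axis, from 0, a scale of its own per panel) in the libraries at 0, 50 and 100 µM alginate (x axis). Points are single libraries and bars the mean ± SD of 3; in every panel the 100 µM points lie above the 0 µM points, while at 50 µM Bcat2 is well clear of the controls and Bckdk and Pccb each have 1 stray library.

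At 0 µM the genes ran in level from Bcat2 through Dbt, Bckdhb, Mut, Pccb, Ivd, Pcca, Bckdha and Bckdk to Ppm1k, and the ranges of neighbours in that order did not overlap. Gene means at 0 µM thus spanned from 3.63 ± 0.270 FPKM for Ppm1k to 83.8 ± 1.57 FPKM for Bcat2 (SD, n = 3). At 50 µM the order was the same except that Bckdha and Pcca changed places. There the ranges of Bckdha and Pcca overlapped, as did those of Pcca and Bckdk. At 100 µM the order was that of 50 µM, and the ranges of Ivd and Bckdha and of Bckdha and Pcca overlapped. Summed over the 10 genes, the level was 289.6 to 301.6 FPKM at 0 µM, 327.0 to 343.7 FPKM at 50 µM and 456.3 to 463.5 FPKM at 100 µM.

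The comparison of 100 with 0 µM asked how the higher dose changed the cells. Of the 10 genes 9 were higher and 0 lower, where 18.3% of the 12635 tested genes were called higher and 15.6% lower. That share was larger among better expressed genes. With at least 5 FPKM in 3 libraries, 2134 of 7887 genes were called higher and 1505 lower, and 9 of the 9 described genes tested there were higher. All 10 had 3 libraries at 100 µM above all 3 at 0 µM, as did 25.0% of tested genes. The median log2 difference was 0.50 over the 10 genes and 0.01 over all tested genes. The split over all genes depended on scaling, with 2314 higher and 1965 lower as deposited, 1630 and 2633 on a common sum, 1731 and 2658 with the authors' factor removed, and 1836 and 3010 with limma voom on rebuilt reads. Under those settings and quantile normalization all 10 genes stayed above 0 in their log2 difference, and 7 to 9 passed.

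For 50 µM against the same controls, 1 of the 10 was called higher and 0 lower, against 0.356% and 0.435% of tested genes. Without 0 µM library 1, 2 or 3 limma called 1, 0 and 1 genes in all, and without 50 µM library 2 it called 0; the counts at an unadjusted p below 0.05 were 1486, 1539, 1566 and 1630. Bcat2, Bckdha and Dbt, 3 of 10, had no overlap with the controls, which was so for 12.1% of tested genes. The median log2 difference was 0.08 (0.01 over all tested genes). Dbt was 0.14 higher with an unadjusted p of 0.0412 and limma adjusted p = 0.320, and Bckdha 0.14 higher with limma adjusted p = 0.589 and a 95% interval of -0.09 to 0.37. The intervals of the other 7 also took in 0. The widest of these was -0.14 to 0.23 for Bckdk and the narrowest -0.06 to 0.14 for Pcca and -0.02 to 0.18 for Mut.

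Between 50 and 100 µM, 8 of the 10 were higher and 0 lower, with 13.2% and 12.0% of tested genes called in those directions. All but Bckdk, 9 of 10, had separate libraries, against 20.9% of tested genes. The median log2 difference was 0.41 (0.01 over all tested genes). Bckdhb rose by 0.53 (limma adjusted p = 0.000356), Bckdha by 0.47 (0.0101), Pccb by 0.45 (0.00306), Dbt by 0.42 (0.00126), Mut by 0.39 (0.000462), Pcca by 0.34 (0.000865) and Ivd by 0.22 (0.0334). The Ivd call held in 9 of 20 alternatives (adjusted p 0.0222 to 0.162). It was lost without 0 µM library 3, 50 µM library 1 or 3, or 100 µM library 2 or 3 (0.0502, 0.0655, 0.0992, 0.0977 and 0.104). Ppm1k had a difference of 0.19 and limma adjusted p = 0.107, and without 100 µM library 3 of 0.25 and 0.0497, in a range of 0.0497 to 0.295. The 3 comparisons share libraries and are not independent of each other.

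**Figure D2:**
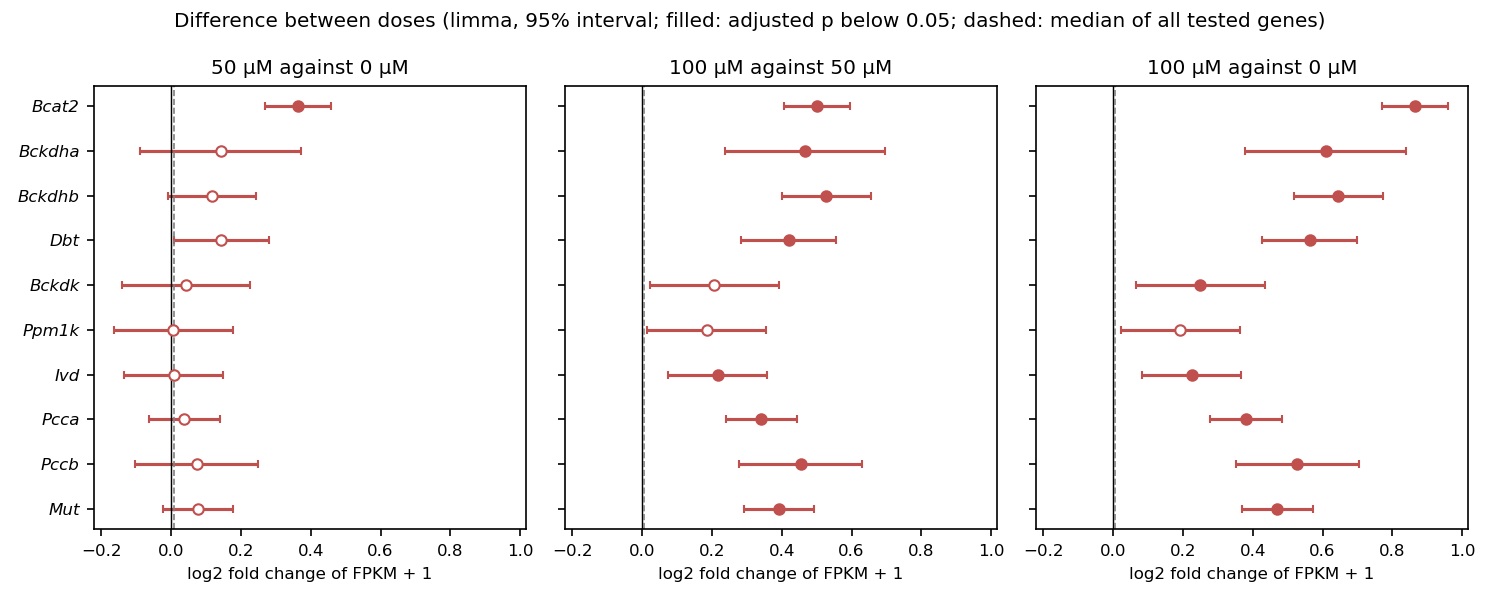
Log2 difference of FPKM + 1 (x axis) for each gene (y axis) in the 3 comparisons, with 95% intervals from limma; filled points passed at adjusted p below 0.05, and the dashed line is the median of all tested genes. Bcat2 is the single filled point for 50 against 0 µM, whereas 8 points are filled for 100 against 50 µM and 9 for 100 against 0 µM.

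Balance between partner genes was examined as ratios within a library, which do not depend on library scaling. The kinase over the phosphatase (Bckdk over Ppm1k) was 3.33, 2.91 and 3.01 at 0 µM, 2.86, 2.95 and 3.74 at 50 µM, and 3.05, 2.91 and 3.50 at 100 µM. Those ranges overlapped, and an exact permutation test over the 3 doses gave p = 0.939 (adjusted p = 0.971 over 4 ratios). The E1 alpha over the E1 beta subunit (Bckdha over Bckdhb) was 0.283, 0.305 and 0.295 at 0 µM, 0.290, 0.330 and 0.285 at 50 µM, and 0.374, 0.253 and 0.264 at 100 µM. Library 1 of 100 µM lay above all others and libraries 2 and 3 below all others, with an exact permutation p = 0.971. Without that library the exact permutation p was 0.0571 (adjusted p = 0.229, over alternatives 0.229 to 0.996).

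For Bckdha over Dbt the means were 0.215 ± 0.00809, 0.216 ± 0.0173 and 0.230 ± 0.0556 at 0, 50 and 100 µM (SD, n = 3; exact permutation p = 0.968). The alpha over the beta subunit of the carboxylase (Pcca over Pccb) was 0.516 ± 0.0152, 0.506 ± 0.0629 and 0.469 ± 0.0201 (SD, n = 3; exact permutation p = 0.329, adjusted p = 0.971). All 100 µM values of Pcca over Pccb, 0.446 to 0.483, lay below the 0 µM values of 0.502 to 0.532. The 50 µM values of 0.460, 0.481 and 0.578 covered both, and without the last, from library 3, the exact permutation p was 0.0429 (adjusted p = 0.171, over alternatives 0.171 to 0.996). Each main test, on all 9 libraries, used the F statistic over the 3 doses and 1680 assignments, with a smallest possible p of 0.00357. Each test without 1 library ran over 560 assignments, and those with the replicate number as a block over 216.

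**Figure D3:**
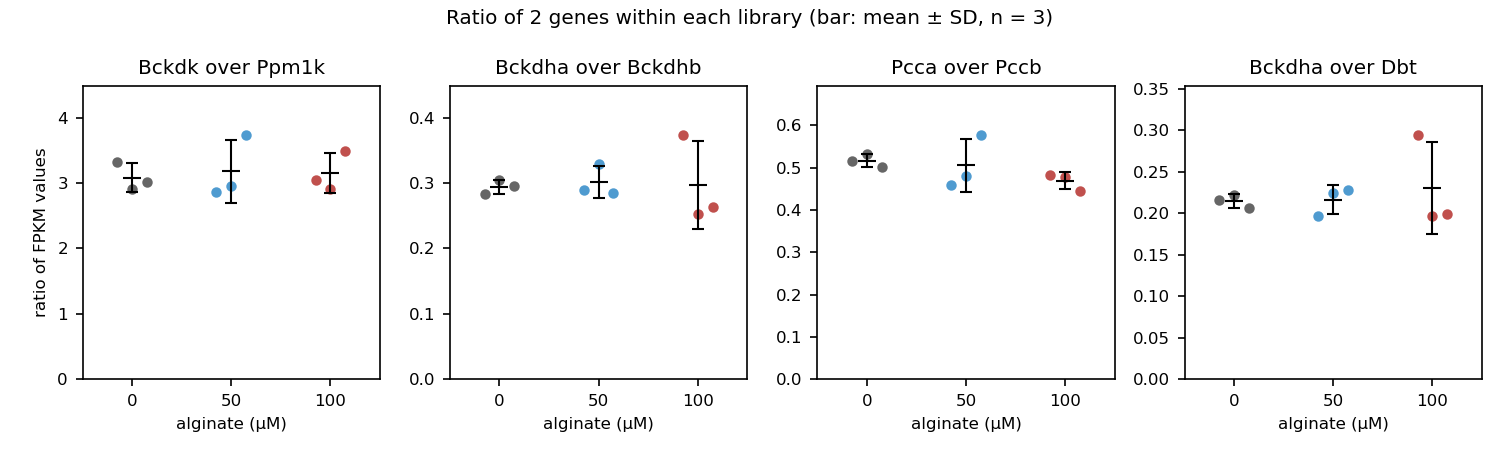
Ratio of FPKM values of 2 genes in the same library (y axis, from 0) against alginate dose (x axis) for 4 pairs. Points are single libraries and bars the mean ± SD of 3; the 50 µM range overlaps both others in each panel, Bckdha over Bckdhb is highest in 100 µM library 1 at 0.374, and Pcca over Pccb is highest in 50 µM library 3 at 0.578.

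Enzymes of the same amino acids outside the 10 mostly rose with them at 100 µM. Of 18 tested genes of leucine, isoleucine and valine breakdown, 14 were higher and 2 lower than at 0 µM, with a median log2 difference of 0.48. Of all tested genes 18.3% were called higher and 15.6% lower in that comparison. Hadhb and Hadha, which were on this list and encode the trifunctional protein of fatty acid oxidation, went from 58.3 ± 1.86 to 96.6 ± 1.47 FPKM and from 61.1 ± 3.05 to 99.9 ± 2.56 FPKM (SD, n = 3). Dld, the E3 subunit that the keto acid dehydrogenase shares with other complexes, rose from 209 ± 8.68 to 343 ± 20.7 FPKM. Hibadh, an enzyme of valine breakdown, rose from 25.2 ± 0.577 to 36.0 ± 1.24 FPKM. The members that fell were Bcat1, the cytosolic aminotransferase (4.62 ± 0.321 to 3.18 ± 0.229 FPKM, limma adjusted p = 0.00126), and Abat, GABA aminotransferase (6.44 ± 0.430 to 5.29 ± 0.226 FPKM, limma adjusted p = 0.0167). The Abat call held in 17 of 20 alternatives (adjusted p 0.000734 to 0.0617) and was lost without 0 µM library 2 or 3 or 100 µM library 1. Bcat1 and Bcat2, which carry out the same reaction in cytosol and mitochondria, thus moved in opposite directions at 100 µM. Neither Acadsb, of isoleucine breakdown (26.0 ± 3.36 and 25.7 ± 0.832 FPKM), nor Auh, of leucine breakdown (4.22 ± 0.181 and 5.06 ± 0.357 FPKM), passed, with limma adjusted p = 0.927 and 0.0544. At 50 µM 0 of the 18 passed, with a median of 0.11, where 0.356% of all tested genes were called higher and 0.435% lower.

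Of 15 tested genes for methylmalonyl-CoA, cobalamin supply and succinyl-CoA, 11 were higher and 0 lower at 100 µM, with a median of 0.34. The shares over all tested genes were 18.3% higher and 15.6% lower. Sucla2 and Suclg1, subunits of succinyl-CoA ligase, rose from 65.6 ± 2.34 to 105 ± 2.55 FPKM and from 33.7 ± 1.13 to 51.6 ± 1.83 FPKM (SD, n = 3). Mlycd, malonyl-CoA decarboxylase, rose from 13.7 ± 0.398 to 21.3 ± 0.680 FPKM. Mmadhc, which directs cobalamin to its enzymes, rose from 50.6 ± 2.40 to 66.4 ± 2.33 FPKM. At 50 µM 0 of these 15 passed, against 0.356% of all tested genes called higher and 0.435% lower. Among genes of biotin enzymes, 3 of 5 listed were found and tested. Acacb, the mitochondrial acetyl-CoA carboxylase, rose from 15.1 ± 2.30 to 34.0 ± 2.56 FPKM, and Btd, biotinidase, from 13.4 ± 0.388 to 16.0 ± 1.23 FPKM. The Btd call held in 16 of 20 alternatives (adjusted p 0.0095 to 0.0607) and was lost without 0 µM library 1, on a common sum, with the authors' factor removed and with limma voom. Hlcs, the ligase that attaches biotin, had 4.24 ± 0.226 and 4.91 ± 0.521 FPKM and did not pass (limma adjusted p = 0.112).

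The related pyruvate and 2-oxoglutarate dehydrogenases, which are built like the branched-chain complex, had 12 of 16 tested genes higher and 1 lower at 100 µM, with a median of 0.52. Among all tested genes 18.3% were higher and 15.6% lower. Pdhb and Pdha1, the E1 subunits of pyruvate dehydrogenase, rose from 202 ± 10.0 to 360 ± 20.3 FPKM and from 101 ± 5.99 to 156 ± 7.56 FPKM (SD, n = 3). Ogdh, the E1 subunit of the 2-oxoglutarate complex, rose from 95.9 ± 3.74 to 155 ± 8.35 FPKM, and Lias, lipoic acid synthase, from 20.0 ± 0.908 to 28.6 ± 0.819 FPKM. Pdk3, a pyruvate dehydrogenase kinase, fell from 9.35 ± 0.122 to 7.15 ± 0.620 FPKM. At 50 µM 0 of the 16 passed, against 0.356% of all tested genes called higher and 0.435% lower.

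Of 9 tested genes for transport and sensing of branched-chain amino acids, 1 was higher and 2 lower at 100 µM, where 18.3% and 15.6% of all tested genes were called, with a median log2 difference of -0.0015. Slc25a44, the mitochondrial carrier that feeds Bcat2, rose from 29.4 ± 1.61 to 43.0 ± 1.44 FPKM (SD, n = 3; log2 difference 0.53, limma adjusted p = 9.29e-05). The plasma membrane carriers Slc7a8 and Slc43a2 fell, from 7.90 ± 0.0479 to 5.95 ± 0.339 FPKM and from 6.21 ± 0.106 to 5.28 ± 0.209 FPKM. Slc3a2, the heavy chain of several such carriers, had 58.6 ± 1.29 and 62.9 ± 2.23 FPKM and did not pass. With values on a common sum 4 of the 9 were lower and 1 higher, with a median of -0.07. Slc7a8 also fell at 50 µM, to 5.57 ± 0.479 FPKM (limma adjusted p = 0.0253), the 1 gene of these pathway lists that passed there. That call was lost in 9 of 20 alternatives, including those without 0 µM library 1, 2 or 3 and without 50 µM library 2 or 3.

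Of 9 listed transcription regulators named in work on these enzymes, all but Esrra, an oestrogen-related receptor, were found by symbol. Among those found, 7 of 8 tested genes were higher and 0 lower at 100 µM. The shares over all tested genes were 18.3% and 15.6%. Srebf1, a regulator of lipid synthesis, rose from 71.4 ± 2.06 to 109 ± 3.84 FPKM, and Mlxipl, the carbohydrate response factor ChREBP, from 6.15 ± 0.222 to 11.6 ± 0.545 FPKM (SD, n = 3). Cebpa and Pparg, the adipogenic factors, rose from 242 ± 8.26 to 374 ± 36.3 FPKM and from 41.2 ± 0.749 to 54.7 ± 3.73 FPKM. The exception was Klf15, a factor of amino acid metabolism, with 9.05 ± 0.752 and 9.19 ± 1.05 FPKM (limma adjusted p = 0.894), named after its values were seen. At 50 µM 0 of the 8 passed, against 0.356% of all tested genes called higher and 0.435% lower.

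Cell type markers moved in the same libraries, where 18.3% of all tested genes were called higher and 15.6% lower at 100 µM. At 100 µM 14 of 14 tested markers of mature adipocytes were higher, with a median log2 difference of 0.71, and their summed level was 8266 to 8502 FPKM at 0 µM, 9082 to 9487 FPKM at 50 µM and 12320 to 13004 FPKM at 100 µM. Of 11 tested progenitor markers 9 were lower, with sums of 835 to 921 FPKM, 768 to 877 FPKM and 493 to 575 FPKM at the 3 doses. Of 10 macrophage markers 8 were lower (251 to 280, 272 to 278 and 202 to 208 FPKM), and of 10 endothelial markers 8 were lower, 5 without 0 µM library 3 (147 to 162, 141 to 156 and 125 to 128 FPKM). Of 8 smooth muscle markers 2 were higher and 2 lower (301 to 343, 304 to 355 and 211 to 230 FPKM). At 50 µM 0.356% of all tested genes were called higher and 0.435% lower. There 4 of the adipocyte markers were higher and 2 of the progenitor markers lower, and 0 of the others passed. Both counts were 0 without 0 µM library 1, 2 or 3 and without 50 µM library 2 or 3, and the adipocyte count was also 0 without 50 µM library 1 and 7 with limma voom. In each list 0 of the genes found were at 0 in every library, although Itgam averaged 0 FPKM at both 0 and 100 µM. The 10 genes summed to 3.56% ± 0.0647 of the adipocyte marker sum at 0 µM, 3.61% ± 0.143 at 50 µM and 3.67% ± 0.0950 at 100 µM (SD, n = 3). The share in single libraries ran from 3.50% to 3.63%, 3.46% to 3.74% and 3.56% to 3.75%, so the doses overlapped in it, whereas they did not in either sum. The sum of the 10 genes is weighted to Bcat2 (83.8 FPKM at 0 µM). Its log2 difference of 0.87 at 100 µM was above the median of 0.50 for the 10. Dbt and Bckdhb came next in level (57.4 and 41.9 FPKM at 0 µM), with 0.56 and 0.64. The share therefore does not stand for each of the 10. The marker sum is weighted to its most abundant genes, Fabp4, Lpl and Cd36 (2601, 1358 and 945 FPKM at 0 µM). Their log2 differences at 100 µM were 0.48, 0.39 and 0.44, below the list median of 0.71. Next in level came Gpd1 and Cidec (735 and 699 FPKM at 0 µM), with 0.86 and 0.73. The part of these markers in the results above was not tested. In bulk RNA, fewer or more cells of a type cannot be told apart from less or more RNA per cell.

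**Figure D4:**
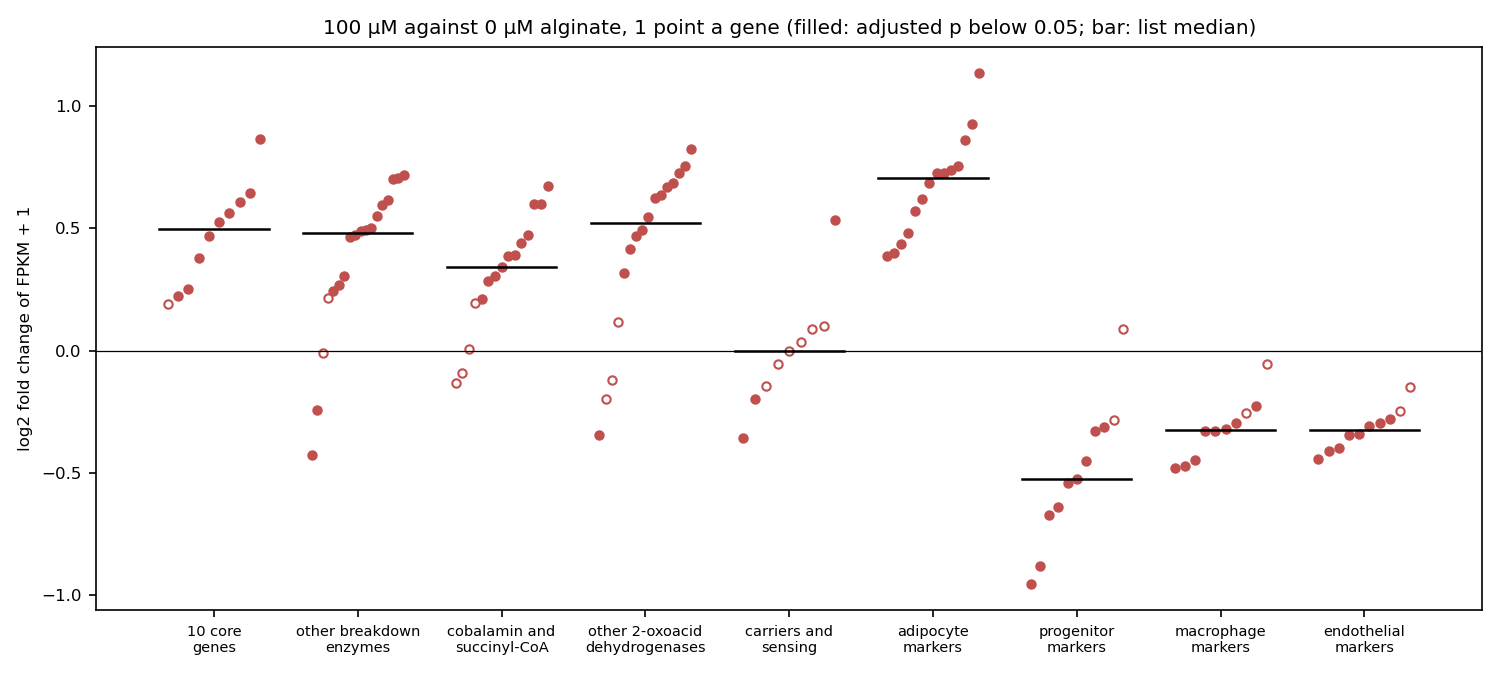
Log2 difference of FPKM + 1 between 100 and 0 µM alginate (y axis), 1 point for each tested gene, by list (x axis); filled points passed at adjusted p below 0.05 and bars are list medians. The 10 core genes (median 0.50), the other breakdown enzymes (0.48) and the other 2-oxoacid dehydrogenases (0.52) lie mostly above 0, as do adipocyte markers (0.71), and progenitor markers lie mostly below.

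Over the 9 libraries each gene was also set beside the mean of the other 9 standardised genes, as a description. These values share library and dose, so they mostly restate the dose difference. The correlation was highest for Mut (r = 0.974), Bckdhb (0.973), Pcca (0.969), Dbt (0.964), Bcat2 (0.950) and Pccb (0.928), followed by Bckdha (0.863), Ivd (0.817), Ppm1k (0.749) and Bckdk (0.714). Within a dose no library was high or low throughout. Library 3 of 50 µM was the lowest of its dose for 5 genes and the highest for 3, and library 1 of 100 µM was the lowest for 6 and the highest for 3.

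Of 7055 protein-coding genes outside these lists with at least 5 FPKM on average, the 5 whose profile over the 9 libraries was most like the mean profile of the 10 were Letm1, Hadh, Pigq, Acad11 and Idh3b. Letm1, a cation exchanger of the inner mitochondrial membrane, had r = 0.996 and means of 16.6, 17.7 and 26.5 FPKM at 0, 50 and 100 µM. Hadh, a hydroxyacyl-CoA dehydrogenase (r = 0.996), had 64.2, 69.7 and 97.7 FPKM. Pigq, of glycolipid anchor synthesis (r = 0.996), had 14.0, 15.2 and 20.2 FPKM. Acad11, an acyl-CoA dehydrogenase (r = 0.994), had 7.46, 8.03 and 11.0 FPKM, and Idh3b, an isocitrate dehydrogenase subunit (r = 0.994), had 70.3, 79.4 and 109.7 FPKM. Each had its larger rise between 50 and 100 µM, a shape that follows from picking genes by likeness to the 10.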

How the data were processed

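Gene expression was measured by RNA sequencing in 9 libraries, 3 per alginate dose. The authors deposited FPKM values for 41761 genes, per the file headers; no aligner or counter is named in the sources used here. GRCm38 and mm10 stand in the submitters' processing notes, while gene identifiers are those of the C57BL/6NJ assembly. Every value was a whole multiple of 1 read within 0.01 read (100% of values), so reads were rebuilt; the deposited scaling total averaged 1.02, 1.02 and 0.973 times the reads at 0, 50 and 100 µM.

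Values were analysed as log2(FPKM + 1), which understates changes of low genes. The 12635 genes that reached 1 FPKM in 3 or more libraries, including all 10 described, were fitted with limma 3.58.1 in R 4.3.3, with 1 mean per dose, all 9 libraries and a variance trend. Tests were two-sided, with Benjamini-Hochberg adjustment over all tested genes and calls at adjusted p below 0.05. Ratios used exact permutation tests. Both procedures were tested on simulated data. The 10 genes and the lists were chosen with earlier results of these data known. Named from each pathway list were the up to 4 genes with the smallest p at 100 µM and every called gene moving against its list's majority, plus the 5 most alike profiles. A gene not passing is named where a list leaves few such genes; these were chosen after their values were seen. The closing section gives the alternatives tried.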

Additional observations from a re-analysis of the deposited data

How the results depend on the processing

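The 10 genes were refitted under 20 alternatives. The number passing stayed between 7 and 9 for 100 against 0 µM and between 7 and 8 for 100 against 50 µM, and Bcat2, Bckdha, Bckdhb, Dbt, Pcca, Pccb and Mut passed both in all 20. At 50 against 0 µM the 1 call, Bcat2, went to 0 with only the 2 groups fitted (adjusted p = 0.0561), with no variance trend (0.0632), and with the replicate number as a block (0.0629); leaving out 1 library gave 0 to 1 calls. Over all genes those settings called 0 (1816, 1755 and 1603 at an unadjusted p below 0.05), against 45 higher and 55 lower as reported, 6 and 6 with no filter, 101 and 107 with at least 5 FPKM, and 180 and 183 with limma voom; without 0 µM library 1, 2 or 3 they were 1 and 0, 0 and 0, and 1 and 0, and without 50 µM library 1, 2 or 3 they were 8 and 32, 0 and 0, and 8 and 5. Near-zero differences at 50 µM changed sign: Ppm1k was -0.0026 on a common sum and -0.042 to 0.038 leaving out 1 library, Ivd -0.0030 on a common sum, -0.0080 with quantile normalization and -0.034 to 0.059 leaving out 1 library, and Bckdk -0.066 to 0.11 leaving out 1 library; the cause was not tested. Ppm1k fell under the 5 FPKM filter and was not tested there.

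Same-numbered libraries did not deviate together (correlation -0.0941 to 0.0412, 0 of 9 pairs over 0.1), so no sign of pairing by number was seen. This check cannot show whether same-numbered libraries shared a culture, animal or batch. With the replicate block 8, 0 and 8 of the 10 genes passed for 100 against 0, 50 against 0 and 100 against 50 µM. The block ratio tests gave adjusted p = 0.972 for each ratio. With 216 assignments a lone ratio could not have passed after adjustment, even at the smallest possible p, so these tests decide little. Over all alternatives no ratio passed after adjustment. Counts of 278 to 421 reads limit what can be resolved for Ppm1k.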
